A study of Sus scrofa with 11 samples.

Results

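Cathepsins and legumain are the proteases of the lysosome, and 9 of their genes (CTSA, CTSB, CTSC, CTSD, CTSH, CTSL, CTSS, CTSZ and LGMN) are described here in pig (Sus scrofa) carotid artery. They were chosen by gene name, and all 9 were found, each with 1 row, among the 35670 rows of the count table. All 9 passed the filter on low counts. RNA came from pigs kept on a high-fat, high-calorie diet for 12 weeks, and every animal also received a weekly intravenous infusion at 400 nM under general anaesthesia. In the SWNT group (5 animals with counts) the infusion held single-walled carbon nanotubes alone, and in the SWNT-SHP1i group (5 animals with counts) the same carriers held a chemical inhibitor of SHP-1, the phosphatase encoded by PTPN6 that passes on the inhibitory signal of SIRPA in macrophages. The study asked whether this macrophage-directed particle lowers the burden of dying cells and inflammation in the artery without anaemia. All animals share the diet and the nanotubes, and neither animals without nanotubes nor animals on a normal diet were analysed here. Strain, age and sex are not given in the labels used here, and SWNT-SHP1i replicate 4, an animal that died before tissue was taken, was not analysed here. Replicate numbers follow the order of the samples and pair no animals.

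Cathepsins are made as inactive precursors, are carried to the lysosome mostly by mannose 6-phosphate receptors, and are activated there by acid pH and by other proteases. Most of the cathepsins described here are cysteine proteases of the papain family, CTSD is an aspartic protease and CTSA a serine carboxypeptidase, while legumain is a cysteine protease that cuts after asparagine and trims several cathepsins into their mature forms. In the artery wall they are known from lipid-laden macrophages, where they digest engulfed cells and lipoproteins and trim antigens, and secreted cathepsins can cut elastin and collagen. Cystatins are natural inhibitors of the cysteine proteases among them.

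All 9 genes had higher fitted levels in SWNT-SHP1i than in SWNT, as had 50.8% of all 15930 genes tested, with log2 fold changes from 0.80 (CTSB) to 2.33 (CTSD) and a median of 1.36, where the median over all genes was 0.006. None passed the edgeR quasi-likelihood test over all genes (adjusted p = 0.997 for each), and 0.0% of all genes were called in either direction (739 had an unadjusted p under 0.05). At an unadjusted p under 0.05, 8 of the 9 were higher (all but CTSA), against 3.49% of all genes. DESeq2 called 0 of the 7 members to which it gave a p, and all 7 had an unadjusted p under 0.05. In that fit 986 of the 15930 genes did so, in either direction. It gave no p for CTSD and CTSZ, since its default setting withholds the p of a gene with an outlying count in a single library. Limma-voom with quality weights called 0 of 9, with 5 of 9 at an unadjusted p under 0.05, beside 1400 of the 15930 genes in either direction. A single animal, SWNT-SHP1i replicate 6, had the highest level of every one of the 9 genes, and without it the median log2 fold change was 0.39. In that fit 0 genes were called as well, and LGMN alone of the 9 had an unadjusted p under 0.05, against 2.59% of all genes that were higher by that rule.

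The libraries held 27593564 to 47718854 counts. Replicate 6 of SWNT-SHP1i was the smallest, and with replicate 3 of the same group and replicate 3 of SWNT it received the lowest quality weights in limma-voom (0.118, 0.207 and 0.410, against 0.931 to 2.90 in the other 7). Each library came from an animal with its own number. Replicate 3 of SWNT and replicate 3 of SWNT-SHP1i have animal numbers from a separate range to the other libraries, and what the range means is not given. The labels name no batch. PTPN6 itself, whose product is the inhibited phosphatase, stood at 13.1 to 28.5 CPM in SWNT and at 30.7, 39.8, 28.7, 12.0 and 123 CPM in SWNT-SHP1i replicates 1, 2, 3, 5 and 6 (log2 fold change 1.34 ± 0.51 (SE), adjusted p = 0.997), and gave 0.58 without replicate 6. CPM are read counts put on one library size by means of TMM factors.

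Among the 9 genes, the highest per-length level in the control artery was that of CTSD, a major endopeptidase of the lysosome. In SWNT its RPKM (CPM per kilobase of exon) was 166 ± 34.2 (SD, n = 5). CTSZ came next at 123 ± 14.6 RPKM. The ranges of these 2 genes over the 5 SWNT libraries overlapped, and both lay above the range of every other member. CTSH (55.4 ± 7.56), CTSA (46.3 ± 5.85) and CTSB (45.3 ± 8.71) formed a middle group whose ranges overlapped. CTSA and CTSB also overlapped LGMN, which followed at 27.8 ± 9.995 RPKM. CTSS (13.50 ± 6.16), CTSC (7.83 ± 2.16) and CTSL (5.67 ± 4.09) were the lowest, with overlapping ranges from 1.83 to 22.04 RPKM that lay below the range of LGMN. Exon length here sums all annotated exons, so a gene with long alternative ends, such as CTSC with 10426 bases, has a low RPKM for its count. The order used medians, and with plain library totals in place of TMM scaling CTSA and CTSB changed places in SWNT.

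In SWNT-SHP1i the order of the medians was similar, led by CTSZ at 177.6 and CTSD at 177.4 RPKM, with LGMN (52.5 RPKM) between CTSA and CTSB. All neighbours in that order overlapped in range. The mean RPKM of CTSD was 832 with an SD of 1448, and that of CTSZ 500.0 with an SD of 770.0, so in both genes the SD exceeded the mean.

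**Figure D1:**
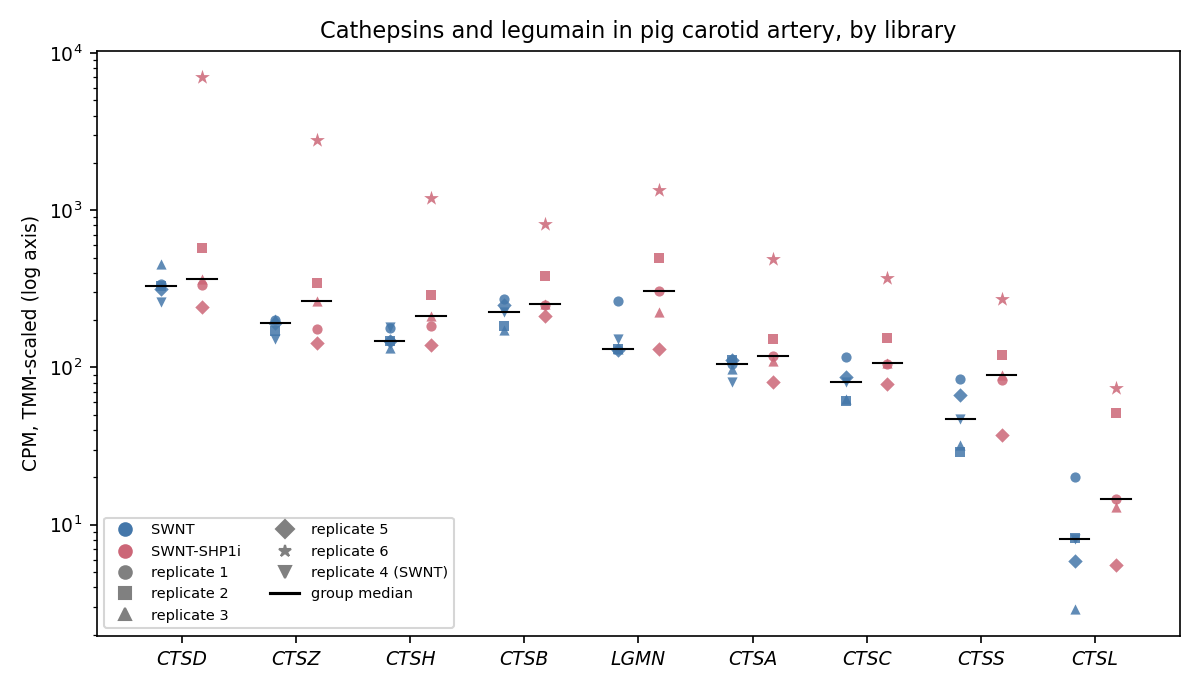
CPM (TMM-scaled, log axis) of the 9 genes in 5 SWNT (blue) and 5 SWNT-SHP1i (red) libraries, with a marker shape for each replicate number and a bar at each group median. SWNT-SHP1i replicate 6 (star) is the highest point of all 9 genes and replicate 2 (square) the next, while replicate 5 (diamond) lies in or below the SWNT range.

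CTSD (ENSSSCG00000040793, chromosome 2, 1188549 to 1197643, minus strand, Sscrofa11.1) was at 339, 328, 453, 262 and 314 CPM in SWNT replicates 1 to 5. In SWNT-SHP1i replicates 1, 2, 3, 5 and 6 it was at 335, 576, 363, 241 and 7006 CPM. The groups overlapped, since 2 treated libraries lay above the highest control, 1 lay below the lowest and the others lay between. The log2 fold change was 2.33 ± 0.87 (95% interval 0.44 to 4.22, adjusted p = 0.997) and 0.16 ± 0.24 (-0.37 to 0.68) without replicate 6. In replicate 6 the gene took 0.610% of all counts and ranked 12 among all genes by count. In the other 9 libraries it took 0.0245% to 0.0597% and ranked between 176 and 543.

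CTSZ (ENSSSCG00000007522, chromosome 17, 59138621 to 59149377, minus strand), also called cathepsin X, removes single residues from the carboxyl end of proteins. Its levels were 199.5, 171, 203, 151 and 191 CPM in SWNT. In SWNT-SHP1i they were 176, 346, 264, 144 and 2783 CPM, in the same order of replicates. Of the treated libraries 3 lay above every control and replicate 5 below every control. CTSZ had a log2 fold change of 2.02 ± 0.74 (0.41 to 3.63, adjusted p = 0.997) and of 0.34 ± 0.23 without replicate 6. Only 9 exonic bases of CTSZ (0.61%) overlap a gene on the opposite strand, NELFCD.

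CTSH (ENSSSCG00000001770, chromosome 7, 48083572 to 48106072, minus strand) is an aminopeptidase. It stood at 179, 147, 133, 182 and 148 CPM in SWNT. In SWNT-SHP1i it stood at 185, 289.7, 212, 139.5 and 1202 CPM, so 4 of 5 treated libraries were above the highest control. Replicate 1 exceeded that control by little (185 against 182 CPM). CTSH had a log2 fold change of 1.36 ± 0.52 (0.22 to 2.50, adjusted p = 0.997) and of 0.39 ± 0.20 without replicate 6.

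CTSC (ENSSSCG00000014924, chromosome 9, 21722036 to 21761516, minus strand), dipeptidyl peptidase 1, activates the granule proteases of neutrophils and cytotoxic lymphocytes. Its SWNT levels were 117, 60.9, 62.8, 81.3 and 86.7 CPM. The SWNT-SHP1i levels were 105, 155, 107, 78.9 and 373 CPM, with replicates 2 and 6 above the controls and the other 3 among them. CTSC had a log2 fold change of 1.002 ± 0.39 (0.15 to 1.86, adjusted p = 0.997), and of 0.45 ± 0.23 without replicate 6.

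CTSB (ENSSSCG00000023666, chromosome 14, 15011711 to 15033877, minus strand), which acts as both endopeptidase and dipeptidyl carboxypeptidase, had the smallest fold change of the 9. It was at 271, 183, 172, 226 and 248 CPM in SWNT. In SWNT-SHP1i it was at 249, 381, 255, 213 and 814 CPM, and only replicates 2 and 6 lay above the controls. The log2 fold change was 0.80 ± 0.35 (0.03 to 1.56, adjusted p = 0.997) and 0.32 ± 0.20 without replicate 6. Of its exonic bases, 72.3% are shared with FDFT1 on the opposite strand, the squalene synthase gene. Since the strand setting of the counting is not given in the sources used here, reads of the pair may not be fully separated.

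The elastin-cutting endopeptidase CTSS (ENSSSCG00000006648, chromosome 4, 98417883 to 98442950, plus strand) also removes the last part of the invariant chain from MHC class II molecules. CTSS stood at 84.8, 28.9, 32.3, 46.7 and 67.0 CPM in SWNT, a 2.93-fold range among controls. In SWNT-SHP1i it stood at 83.7, 119.5, 89.1, 37.3 and 272 CPM. Replicates 2, 3 and 6 were above the controls, replicate 3 by little. Its log2 fold change was 1.21 ± 0.47 (0.19 to 2.23, adjusted p = 0.997), and 0.66 ± 0.37 without replicate 6.

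The row named CTSL (ENSSSCG00000010948, chromosome 10, 27668264 to 27674618, minus strand) had the lowest level of the 9 and the widest spread among controls. It was at 19.98, 8.26, 2.90, 8.11 and 5.84 CPM in SWNT, a 6.88-fold range. In SWNT-SHP1i it was at 14.5, 51.3, 12.9, 5.52 and 74.2 CPM. Replicates 2 and 6 lay above the controls and the other 3 within their range. The log2 fold change was 1.81 ± 0.68 (0.32 to 3.30, adjusted p = 0.997), and 1.22 ± 0.65 (-0.22 to 2.67) without replicate 6.

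The name CTSL needs care in the pig. A second row, CTSV (ENSSSCG00000011171, chromosome 10, 25202389 to 25209210, plus strand), carries CTSL and CTSL1 among its synonyms in the RefSeq gene table for Sscrofa11.1, and it had the higher per-length level (47.0 ± 4.05 RPKM in SWNT against 5.67 ± 4.09 for CTSL). CTSV stood at 129.8, 124, 103, 123 and 118 CPM in SWNT. In SWNT-SHP1i it stood at 133, 168, 131, 136.5 and 136.3 CPM, above every control in all 5 libraries, where 0.0816% of all genes had groups that did not overlap with SWNT-SHP1i higher. Its fitted difference was small, 0.24 ± 0.16 (-0.10 to 0.58, adjusted p = 0.997). The ratio of CTSL to CTSV counts ran from 0.0283 to 0.154 in SWNT and reached 0.545 in SWNT-SHP1i replicate 6 and 0.305 in replicate 2. Reads of closely related copies may be split between the rows, and with both rows summed into 1 gene the log2 fold change was 0.43 (adjusted p = 0.998). CTSV was singled out after its values were seen.

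LGMN (ENSSSCG00000002452, chromosome 7, 114173693 to 114217102, minus strand), legumain or asparaginyl endopeptidase, had the smallest p of the 9. Its SWNT levels were 264, 131, 131, 151 and 129.9 CPM, so replicate 1 stood apart from the other 4 controls. The SWNT-SHP1i levels were 305, 498, 227, 131 and 1340 CPM. Replicates 1, 2 and 6 lay above the highest control, and replicate 5 was level with the low controls. The log2 fold change was 1.63 ± 0.54 (0.47 to 2.80, adjusted p = 0.997). It was 0.85 ± 0.35 (0.09 to 1.61, adjusted p = 0.951) without replicate 6, 0.96 ± 0.39 without replicates 3 and 6, and 1.88 without SWNT replicate 1.

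CTSA (ENSSSCG00000007431, chromosome 17, 48082448 to 48089971, plus strand), a serine carboxypeptidase, also shields the lysosomal sialidase NEU1 and the beta-galactosidase GLB1 in a complex. It stood at 106, 111, 98.2, 80.5 and 111 CPM in SWNT. In SWNT-SHP1i it stood at 119, 151, 109, 80.4 and 492 CPM, 3 of them above the controls. Its log2 fold change was 0.91 ± 0.43 (-0.03 to 1.85, adjusted p = 0.997), and 0.18 ± 0.18 without replicate 6. Of its exonic bases 20.6% overlap genes on the opposite strand, NEURL2 being one.

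**Figure D2:**
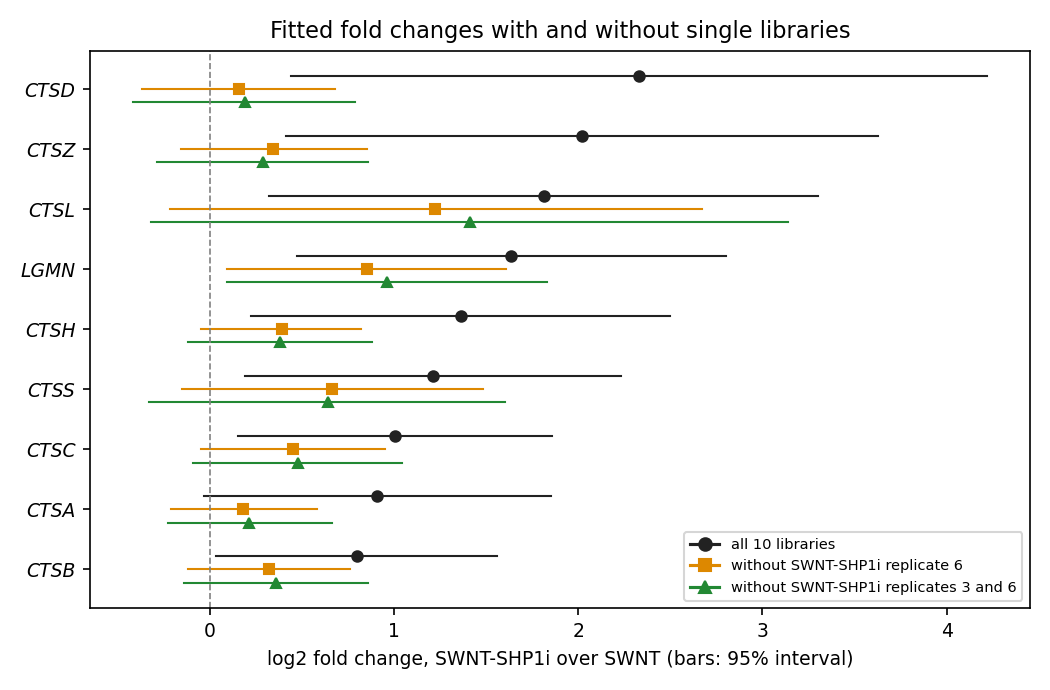
Log2 fold change of SWNT-SHP1i over SWNT with its 95% interval for the 9 genes, from all 10 libraries (black), without SWNT-SHP1i replicate 6 (orange) and without SWNT-SHP1i replicates 3 and 6 (green). CTSD moves from 2.33 to 0.16 without replicate 6, and the largest values in that fit are those of CTSL (1.22, against 1.81 with it) and LGMN (0.85, against 1.63).

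Among the treated animals the 9 genes put the libraries in nearly the same order. Replicate 6 was the highest of all 10 libraries and replicate 2 the second for all 9, where replicate 6 was the highest for 29.4% of all genes and this pair led for 4.34%. Replicate 5 was within the SWNT range for 6 genes and below it for 3 (CTSA, CTSD and CTSZ). Replicates 1 and 3 were each above the highest control for 3 genes and within the control range for 6. No member had groups that did not overlap. At least 3 of 5 treated libraries were above the highest control for 5 of the 9 (CTSA, CTSH, CTSS, CTSZ and LGMN), against 10.7% of all genes.

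The size of the difference in replicate 6 was not the same for each gene. Against the SWNT median, CTSD was 21.3-fold and CTSZ 14.6-fold higher there. LGMN (10.2-fold), CTSL (9.16-fold) and CTSH (8.12-fold) followed. The smallest ratios were those of CTSS (5.82), CTSA (4.65), CTSC (4.59) and CTSB (3.60). In replicate 2 the order was another one. CTSL (6.33-fold), LGMN (3.80-fold) and CTSS (2.56-fold) led, whereas CTSD and CTSZ were 1.75-fold and 1.81-fold above the SWNT median. These ratios are of single libraries and have no test.

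The make-up of the transcript pool also differed in replicate 6. Per length, CTSD supplied 29.7% to 42.3% of the summed RPKM of the 9 genes in the SWNT libraries and 29.0% to 30.4% in SWNT-SHP1i replicates 1, 2, 3 and 5, but 52.7% in replicate 6. The share of CTSZ was 28.9% in replicate 6, within its span of 21.7% to 29.0% elsewhere. CTSB supplied 6.77% to 11.4% in those 9 libraries and 2.58% in replicate 6. The share of LGMN was 9.63% and 9.26% in SWNT-SHP1i replicates 1 and 2, and 4.30% to 8.15% in SWNT. Together the 9 genes took 1.25% of all counts in replicate 6, 0.266% in replicate 2 and 0.109% to 0.165% in the other 8 libraries.

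**Figure D3:**
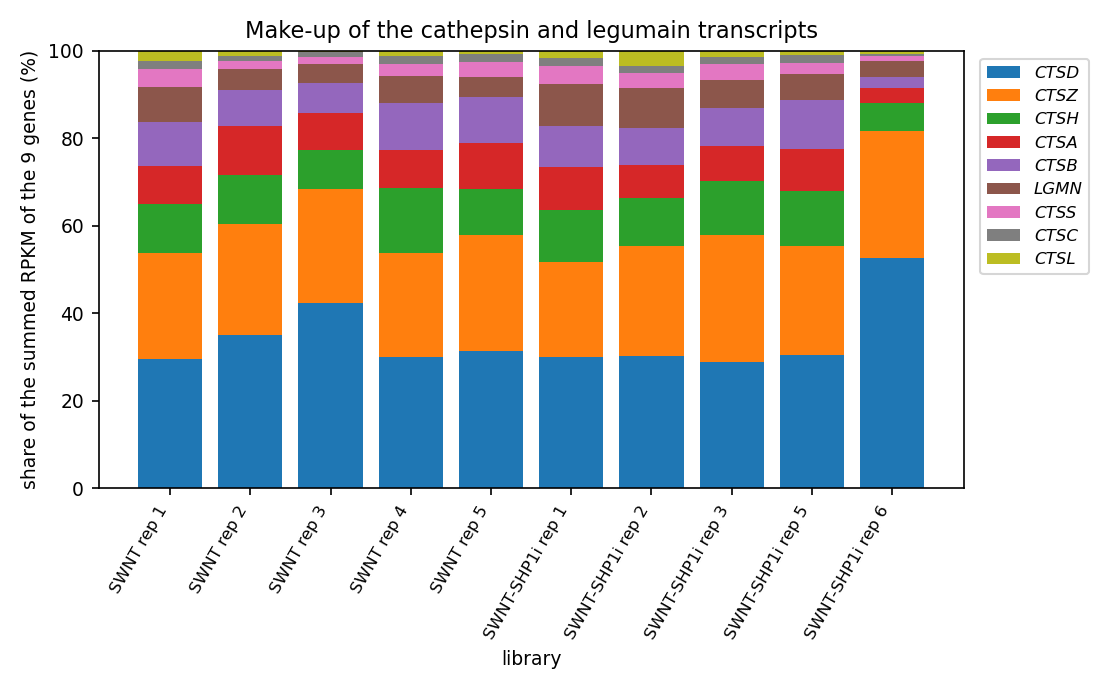
Share (%) of each of the 9 genes in their summed RPKM, as 1 stacked bar for each library. CTSD makes up 52.7% of the bar of SWNT-SHP1i replicate 6, against 29.0% to 42.3% elsewhere.

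Variation among control animals also differed by gene. The coefficient of variation in SWNT was 11.9% for CTSZ, 12.6% for CTSA and 13.7% for CTSH. It was 45.6% for CTSS and 72.1% for CTSL. SWNT replicate 1 was the highest control for CTSB, CTSC, CTSL, CTSS and LGMN.

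Macrophage markers varied over the same libraries. Of 19 markers, 18 were in the table (ADGRE1 was not matched), and their summed level was 515 to 1473 CPM in SWNT, highest in replicate 1, and 542 to 2896 CPM in SWNT-SHP1i. In SWNT-SHP1i replicates 1, 2, 3, 5 and 6 the sums were 1648, 1780, 1743, 542 and 2896 CPM, beside 1571, 2567, 1638, 1071 and 14356 CPM for the 9 proteases. MARCO had 0 counts in SWNT replicate 5 and in SWNT-SHP1i replicates 3 and 5, and each of the other 17 had counts in all 10 libraries. Replicate 6 had 1.63 times the macrophage sum of replicate 2 and 5.59 times its protease sum. These sums give most weight to the genes with high levels, and single genes differed widely. From replicate 2 to replicate 6, TYROBP went from 37.5 to 199.6 CPM, C1QA from 231 to 237 and MRC1 from 63.8 to 28.5. Among the proteases CTSD went from 576 to 7006 CPM, CTSB from 381 to 814 and CTSL from 51.3 to 74.2. All 18 markers had positive fold changes and 0 were called, with a median log2 fold change of 1.18 (0.84 without replicate 6). At an unadjusted p under 0.05, 13 of the 18 were higher, against 3.49% of all genes, and 5 without replicate 6, against 2.59%. The lysosomal marker CD68 stood at 7.93 to 42.5 CPM in SWNT and at 52.5, 61.0, 55.6, 11.0 and 193 CPM in SWNT-SHP1i. The part of the macrophage markers in the protease values was not tested, and in bulk tissue more macrophages and more protease RNA in each macrophage cannot be told apart.

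Markers of other cell types also varied over these libraries, with 0 called on each of the lists named here. Contractile smooth muscle markers (10 of 10 in the table) summed to 41675 to 61892 CPM in SWNT. In SWNT-SHP1i they summed to 29796 to 51012 CPM in replicates 1, 2, 3 and 5, and to 19836 CPM in replicate 6. Of these 10, 0 had positive fold changes (1 without replicate 6), against 50.8% of all genes. Their median log2 fold change was -0.62 (-0.5 without replicate 6). The 5 neutrophil markers in the table summed to 3.21 to 8.53 CPM in SWNT and to 314 CPM in replicate 6, where replicates 1, 2, 3 and 5 of SWNT-SHP1i had 28.2, 5.79, 47.0 and 1.59 CPM. Of the 4 tested, MMP9 depended most on replicate 6, with a log2 fold change of 5.54 with it and 1.23 without it. Without replicate 6, PGLYRP1 went from 3.53 to 2.77, S100A8 from 2.93 to 2.36 and CSF3R from 2.29 to 1.51. Fibroblast markers (10 of 10) summed to 40946 to 83913 CPM in SWNT and 70271 to 104949.9 CPM in SWNT-SHP1i, the highest in replicate 2. Their median log2 fold change was 0.4 (0.55 without replicate 6). Skeletal muscle markers (5 of 6) reached 143, 166 and 96.0 CPM in SWNT-SHP1i replicates 1, 3 and 6, against 7.45 to 23.9 CPM in the other 7 libraries. Schwann cell markers (5 of 6) summed to 147.6 to 193 CPM in SWNT and to 85.5, 108.0, 108.3, 123.6 and 51.7 CPM in SWNT-SHP1i, lower in every treated library than in any control, with a median log2 fold change of -0.80 (-0.56 without replicate 6). T and NK cell markers (5 of 7) summed to 156.9 CPM in replicate 6 and to 13.8 to 48 CPM in the other 9 libraries. Yet only 2 of these 5 had positive fold changes, and the median log2 fold change was -0.31 (-0.76 without replicate 6). NKG7 had the largest (2.10, and 0.54 without replicate 6), while CD3D gave -0.49, CD3E -0.31, CD2 0.02 and GNLY -1.01. The sums of B and plasma cell, adipocyte and endothelial markers overlapped between the groups, and replicate 6 lay within the SWNT range for each. The part of these cell types in the protease values was not tested.

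The remaining cathepsins lay nearer to their control levels in replicate 6, at 0.95 to 1.70 times the SWNT median. Of the 7 on that list, 5 were tested and 0 called, with 4 positive and a median log2 fold change of 0.24 (3 positive and 0.15 without replicate 6). CTSK, the collagen-cutting cathepsin known from osteoclasts, stood at 167 to 239 CPM in SWNT and at 223, 219, 246, 235 and 349 CPM in SWNT-SHP1i (0.29 ± 0.19, adjusted p = 0.997, and 0.15 without replicate 6). CTSO stood at 5.96 to 12.7 CPM in SWNT and at 20.3, 14.4, 20.2, 13.3 and 11.2 CPM in SWNT-SHP1i. Thus 4 treated libraries were above the controls and replicate 6 was not, where 10.7% of all genes had at least 3 there. The log2 fold change of CTSO was 0.55 ± 0.27 (adjusted p = 0.997), and 0.65 ± 0.24 without replicate 6 (adjusted p = 0.951). In replicate 6 CTSF and CTSK were 1.70 and 1.67 times their SWNT medians.

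Of 7 cathepsin inhibitors 6 were tested and 0 called, with a median log2 fold change of 0.43 (0.05 without replicate 6). The cytosolic inhibitor CSTB was at 34.8 to 83.1 CPM in SWNT and at 51.4, 70.1, 63.0, 30.1 and 527 CPM in SWNT-SHP1i. Its log2 fold change was 1.42 ± 0.69 (adjusted p = 0.997), and -0.05 without replicate 6. CST3, the secreted cystatin C, was at 1097 to 1534 CPM in SWNT and at 3565 CPM in replicate 6, 2.95 times the SWNT median. SERPINB6 gave 0.49 ± 0.27 (adjusted p = 0.997), and 0.25 without replicate 6.

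**Figure D4:**
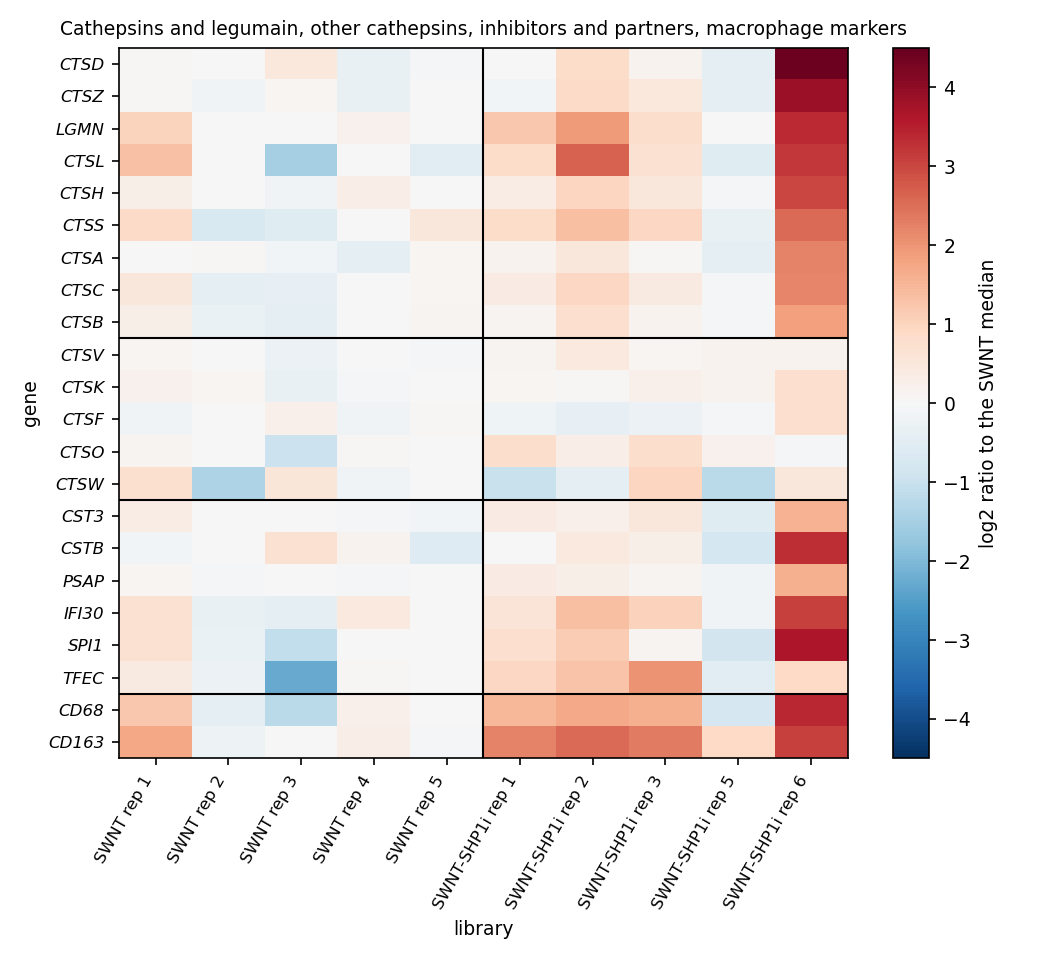
Log2 ratio of each library's CPM to the SWNT median (colour scale) for the 9 genes (top block), the other 5 cathepsins in the table, inhibitors and pathway partners, and the macrophage markers CD68 and CD163 (bottom block). SWNT-SHP1i replicate 6 is dark for CTSD (21.3-fold) and CTSZ (14.6-fold), pale for CTSV (1.11-fold) and CTSO (0.95-fold).

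The list of genes that sort or activate lysosomal enzymes, which also holds lysosomal membrane proteins and the enzymes of the CTSA complex, had small fitted differences. Of the 12, 10 had positive fold changes, against 50.8% of all genes, and 0 were called. Their median log2 fold change was 0.27 (0.08 without replicate 6). PSAP, the precursor of the saposins, was at 947 to 1059 CPM in SWNT and at 1304, 1207, 1079, 889 and 3019.7 CPM in SWNT-SHP1i (0.60 ± 0.31, adjusted p = 0.997, and 0.17 without replicate 6). GLB1, the beta-galactosidase held in the CTSA complex, gave 0.44 ± 0.23 (adjusted p = 0.997), and 0.31 without replicate 6. Of 4 transcription factors of the TFEB family 0 were called, and their median was 0.31. TFEC, the member restricted largely to myeloid cells, was at 0.357 to 2.25 CPM in SWNT. In SWNT-SHP1i it was at 3.23, 4.16, 6.98, 1.23 and 3.16 CPM (1.32 ± 0.56, adjusted p = 0.997). Without replicate 6 its log2 fold change was 1.37 ± 0.59 (adjusted p = 0.951). TFE3 gave 0.29 ± 0.19 (adjusted p = 0.997), and 0.15 without replicate 6.

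Of 4 partners in antigen presentation 0 were called and all 4 were positive, with a median log2 fold change of 1.05 (0.26 without replicate 6). IFI30, the lysosomal thiol reductase that opens disulphide bonds for the cathepsins, was at 32.6 to 70.9 CPM in SWNT. In SWNT-SHP1i it was at 65.4, 112, 90.0, 39.8 and 371 CPM, 3 libraries being above the controls (1.49 ± 0.52, adjusted p = 0.997, and 0.67 without replicate 6). SPI1, the myeloid transcription factor PU.1, was at 11.07 to 38.6 CPM in SWNT and at 40.7, 52.7, 26.5, 13.4 and 298 CPM in SWNT-SHP1i (1.88 ± 0.72, adjusted p = 0.997, and 0.50 without replicate 6). Of 6 genes of matrix proteins that cathepsins can meet in the wall, 0 were called and 1 had a positive fold change, and the median was -0.17. COL4A1 (-0.45 ± 0.26) and COL4A2 (-0.41 ± 0.23), the main chains of basement membrane collagen, had the smallest p of that list (adjusted p = 0.997 for both). Without replicate 6 they gave -0.42 and -0.38.

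The genes outside the group whose log2 CPM was most like the mean of the 9 over the 10 libraries were ARRB1, FERMT3, SLC17A9, RRBP1, FKBP10 and RPS6KA1. The likeness is Pearson's r across 10 libraries, given as a description, and replicate 6 weighs heavily in it. ARRB1, beta-arrestin 1, had r = 0.993, and r = 0.974 over the 9 libraries without replicate 6. It stood at 59.1 to 92.2 CPM in SWNT and at 82.4, 118, 77.1, 59.3 and 250.5 CPM in SWNT-SHP1i. FERMT3, the kindlin of blood cells that activates integrins, had r = 0.987, and 0.954 without replicate 6. The other 4 had r from 0.980 to 0.981, and from 0.902 to 0.921 without that library. None of these 6 genes was called (adjusted p = 0.997 for each).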

How the data were processed

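Whole read counts per gene were deposited by the authors in 1 table, without normalization. Trim Galore, STAR, DESeq2 and the build Sscrofa11.1 are named in the submitters' processing notes, with no versions. Which counter, strand setting and annotation were used is not given in the sources used here. Exon length and gene coordinates are those of the same table, per the file headers (other values). Symbols came from the table for 17508 rows and from a gene identifier table for a further 223, and all 9 members also matched a RefSeq gene by symbol. All 45 library pairs differed by more than sampling noise (median chi-square at least 5.42, against 0.455), so all 10 were kept.

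Counts were filtered with filterByExpr (minimum count 10), leaving 15930 genes with at least 99.89% of each library's counts, and scaled by TMM. SWNT-SHP1i was tested against SWNT in edgeR 4.0.16 with its quasi-likelihood test (R 4.3.3, robust, no covariates). P-values were adjusted by Benjamini-Hochberg across the 15930 genes, and the threshold was 0.05. The SE is the absolute log2 fold change over the square root of F, and 95% intervals use it with the test's degrees of freedom. Fitted fold changes compare mean counts and so lean towards the highest libraries. DESeq2 1.42.0 and limma 3.58.1 served as alternatives, with RLE and upper-quartile scaling, other filters, a fit that was not robust, a term for the range of animal numbers or 1 range alone, and libraries left out. The handling of duplicate reads is not described, so reads may not be independent molecules.

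The members, the lists and the alternatives were chosen with earlier results of these data known. Genes named are the 9 members, PTPN6, the 2 genes with the smallest p in each of 6 pathway lists, and the 6 genes whose log2 CPM (prior count 2) over the libraries was most like the members' mean. CTSV, CTSF, CST3, CD68 and CD163 were named after their values were seen.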

Additional observations from a re-analysis of the deposited data

Results flagged for a closer look

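In groups of 5 libraries, the highest or lowest log2 CPM was compared with the others by Dixon's ratio, the gap to the nearest library over the whole range, and flagged above its 95% critical value. Of 56 groups checked 6 were flagged. Chance flags about 1 in 20 where genes are picked without regard to their values. Here some genes, CTSO, CTSK, TFEC and COL4A1 among them, were picked by their p in these data. The groups are also not independent because they share libraries. CTSD in SWNT-SHP1i had a ratio of 0.742, with 12.77 in replicate 6 against 7.91 to 9.17 in the other 4. LGMN in SWNT had a ratio of 0.789, with 8.04 in replicate 1 against 7.02 to 7.24. CTSK in SWNT-SHP1i had a ratio of 0.750, with 8.45 in replicate 6 against 7.78 to 7.94. CTSO (0.894) and TFEC (0.739) in SWNT were low in replicate 3, at 2.59 against 3.56 to 3.67 and at -1.28 against 0.56 to 1.203. COL4A1 in SWNT had a ratio of 0.796, with 11.50 in replicate 4 against 12.25 to 12.44.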

How the results depend on the processing

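The count of genes called was 0, and so was the count of members called, under every alternative run, including a threshold of 0.1 for edgeR, and the sign of each member's log2 fold change stayed positive in all of them. The median log2 fold change of the 9 was 0.38 without SWNT-SHP1i replicates 3 and 6, and it ran from 0.39 (without SWNT-SHP1i replicate 6) to 1.58 (without SWNT-SHP1i replicate 5) with 1 library left out. It was 0.51 with limma-voom quality weights and 1.30 to 1.46 under the other scalings, filters and fits. Of the 9 members, 8 had an unadjusted p under 0.05 in the full fit and 1 when SWNT-SHP1i replicate 6 was left out. Among all genes these fits gave 739 and 738, in either direction. Leaving out SWNT replicate 2, or SWNT replicate 3, gave 5 members (421 and 577 of all genes). Leaving out SWNT-SHP1i replicate 1, 3 or 5 gave all 9 (684, 680 and 1583 of all genes), as did a fit with no low-count filter (1668 of all genes). By its default check for outlying counts, DESeq2 gave no p for 163 genes, CTSD and CTSZ among them. The smallest adjusted p of any member over the alternatives was 0.289 (DESeq2). No paired analysis was possible because the replicate numbers follow sample order and pair no animals. The levels of CTSL rest on 130 to 2100 counts a library.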
